A study of Mus musculus with 9 samples.

Results

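RNA-seq of the colonic mucosa was used to follow 10 genes that take up, bind and export dietary lipid. They were the fatty acid binding proteins Fabp1, Fabp2, Fabp4, Fabp5 and Fabp6, the fatty acid transporter Cd36, the apolipoproteins Apoa1, Apoa4 and Apob, and the lipid transfer protein Mttp. The genes were chosen by name, with earlier results of these data known, and each matched 1 row of a table of 54146 genes. The study asked which transcripts of the colon depend on methylation of the p16 promoter. The mice were C57BL/6J animals of 15 wk of age. The 5 ApcMin/+ mice, 2 females and 3 males, carried the Min mutation of Apc on 1 allele, and the 4 ApcMin/+; p16cis/cis mice, 3 females and 1 male, carried it as well. The second genotype, written p16cis/cis from here on, also had on both p16 alleles a knocked-in cis-element that attracts DNA methylation to the promoter. The element is present in every cell of the body, so the comparison is not limited to the epithelium. The labels call the tissue colonic mucosa and the methods name colonic crypts as the source of RNA. Each mouse was 1 library, named here by its genotype and replicate number.

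Lipid from the gut lumen enters the absorptive cell as free fatty acid and monoacylglycerol. Small cytosolic FABP proteins carry fatty acids, and FABP6 carries bile acids, through the cell. The lipid is rebuilt into triglyceride in the endoplasmic reticulum, where MTTP, the microsomal triglyceride transfer protein, loads it onto the growing apolipoprotein B chain. The particle acquires further apolipoproteins such as APOA1 and APOA4 and leaves the cell as a chylomicron. This machinery is known chiefly from the small intestine, and Fabp6 from the ileum, while the colon absorbs little dietary fat.

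Values are normalized counts, that is, reads per gene after division by the size factor of the library, and a log2 difference is p16cis/cis minus ApcMin/+ on the log2(normalized count + 1) scale. A gene was tested with limma when it reached a value of 10 in at least 4 mice. A gene passed when its p-value, adjusted by Benjamini-Hochberg, was under 0.05 over the 14410 genes tested, and was called when the fold change was over 2 as well. Total reads on genes were 15745098 to 17885918 in ApcMin/+ mice and 13523500 to 14900228 in p16cis/cis mice. The share of mitochondrial reads was 8.74% to 15.6% in ApcMin/+ and 19.3% to 29.8% in p16cis/cis mice, so that neither depth nor mitochondrial share overlapped between the genotypes. Both move with every difference described here, and depth and genotype cannot be told apart. Of 13 colon epithelium markers, 13 were tested and Muc2 and Krt19 had the highest means, so the defining markers of the labelled tissue were present. Their summed normalized count was 396252 to 661054 in ApcMin/+ and 389163 to 451726 in p16cis/cis mice.

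Apob and Mttp, the genes for the core protein of the lipoprotein particle and for the factor that loads it, were lower in every p16cis/cis mouse than in any ApcMin/+ mouse. Both fell by more than 2-fold and were called, 2 of the 6 genes of the group that could be tested. Without ApcMin/+ replicate 3, or without any of p16cis/cis replicates 2, 3 and 4, the count was 1, Apob alone. Of all genes tested, 1.64% were called lower, 8.75% passed with a lower value, and 8.95% were lower without overlap between the genotypes. Because the genes were chosen with earlier results of these data known, these shares are given for reference and are not a test. The other 8 genes had a lower mean on the log2 scale in p16cis/cis mice as well, as did 50.4% of all genes tested, and the genotypes overlapped for each of them. The median log2 difference of the 6 genes tested was -1.03, against -0.0041 over all genes tested. Fabp1 entered the test only because of 4 ApcMin/+ mice, so that this median is a description of the genes that passed the filter and not of all 10. In bulk tissue, fewer cells of a type and less RNA per cell cannot be told apart.

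**Figure D1:**
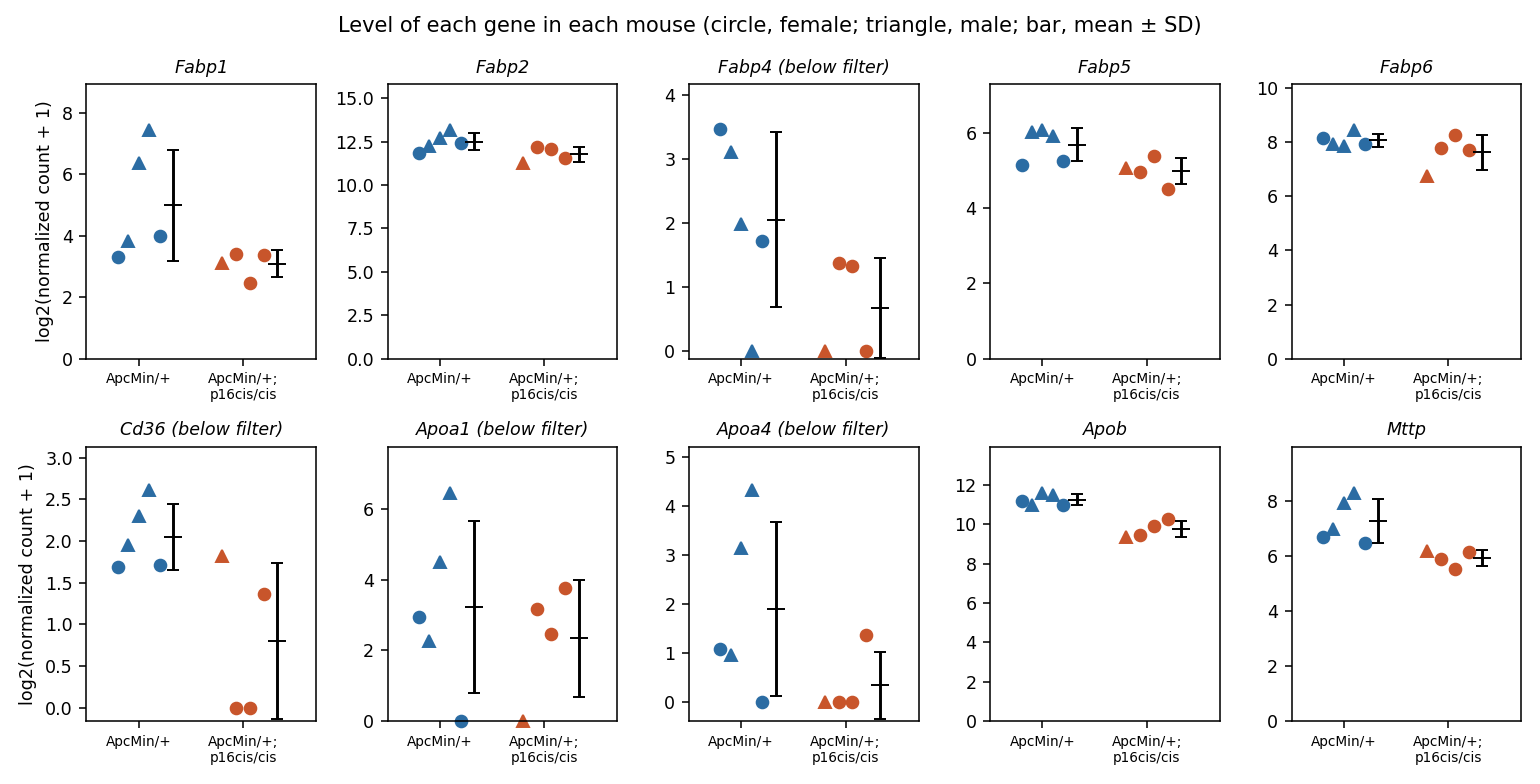
Level of each of the 10 genes in each mouse as log2(normalized count + 1), with 1 panel and 1 axis range per gene, ApcMin/+ mice in blue and ApcMin/+; p16cis/cis mice in orange, and the mean ± SD beside them. Only for Apob and Mttp do the genotypes not overlap. ApcMin/+ replicates 3 and 4 have the highest points for Fabp1, Fabp2, Cd36, Apoa1, Apoa4, Apob and Mttp.

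Apob (ENSMUSG00000020609.14) encodes apolipoprotein B, the structural protein of chylomicrons and very low density lipoproteins. The gene lies on the plus strand of chr12:7977648-8016835 in GRCm38. Its normalized counts were 2313, 2004, 3079.9, 2837 and 2000.0 in ApcMin/+ replicates 1 to 5. They were 655, 708, 963 and 1217 in p16cis/cis replicates 1 to 4. The highest p16cis/cis mouse thus stood below the lowest ApcMin/+ mouse. The mean was 2447 ± 492 (SD, n = 5) in ApcMin/+ and 886 ± 258 (SD, n = 4) in p16cis/cis mice. The log2 difference was -1.49 ± 0.19 (SE), a 2.80-fold lower level, and it passed the limma test with an adjusted p = 0.00183. The genotypes were also apart within each sex. Female values were 2000.0 to 2313 in ApcMin/+ and 708 to 1217 in p16cis/cis mice, and male values were 2004 to 3079.9 in ApcMin/+ mice against 655 in the single p16cis/cis male.

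Mttp (ENSMUSG00000028158.14), on the minus strand of chr3:138089854-138144968, encodes the large subunit of the transfer protein that lipidates apolipoprotein B. Normalized counts of Mttp were 103, 126, 242, 310.2 and 86.3 in ApcMin/+ replicates 1 to 5. They were 70.7, 57.4, 45.1 and 68.9 in p16cis/cis replicates 1 to 4. ApcMin/+ replicates 3 and 4, both male, stood well above the other ApcMin/+ mice, while the p16cis/cis mice lay close together. The log2 difference was -1.34 ± 0.35 (SE), a 2.54-fold lower level, with an adjusted p = 0.0247 from limma. Female values were 86.3 to 103 in ApcMin/+ and 45.1 to 68.9 in p16cis/cis mice, without overlap, but in the fit of females only the log2 difference was -0.73 (limma adjusted p = 0.191) and Mttp did not pass. With sex as a covariate the log2 difference was -1.05 and the adjusted p-value from limma 0.0508, just short of the threshold. It was 0.0634 without ApcMin/+ replicate 3, and 0.0645, 0.0578 and 0.0544 without p16cis/cis replicates 2, 3 and 4. In a fit added once the values were known, without ApcMin/+ replicates 3 and 4 together, the log2 difference of Mttp was -0.79 (limma adjusted p = 0.0483), under 2-fold, and that of Apob was -1.29 (adjusted p = 0.00272). The upstream end of Mttp overlaps Trmt10a, a gene on the opposite strand with normalized counts of 70.2 to 112, and whether reads were counted by strand is not given in the sources used here, so that some reads of the pair may have been assigned to the other gene.

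With the mitochondrial share as a covariate, neither Apob nor Mttp passed. The log2 differences were then -1.34 for Apob and -0.43 for Mttp, with limma adjusted p-values of 0.848 and 0.932, and 0 genes of the whole table were called, with 798 at an unadjusted p-value under 0.05. The part of the mitochondrial share in these results was not tested beyond this fit.

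The start regions of the genes that differed or varied most are given so that they can be read beside these values. RefSeq promoter windows, 250 bases before to 50 bases after an annotated start in GRCm38.p6, were found for 8 of the 10 genes, all but Fabp4 and Fabp5. They were searched on both strands for TATAAA and for AGGTCANAGGTCA, a direct repeat with a spacer of 1 base that PPAR and HNF4 family receptors are known to bind, with up to 2 mismatches. Capitals mark the matches to these motifs. Fabp1 is on the plus strand at chr6:71199629-71199928, Apob on the plus strand at chr12:7977427-7977726 and Mttp on the minus strand at chr3:138143369-138143668.
Fabp1: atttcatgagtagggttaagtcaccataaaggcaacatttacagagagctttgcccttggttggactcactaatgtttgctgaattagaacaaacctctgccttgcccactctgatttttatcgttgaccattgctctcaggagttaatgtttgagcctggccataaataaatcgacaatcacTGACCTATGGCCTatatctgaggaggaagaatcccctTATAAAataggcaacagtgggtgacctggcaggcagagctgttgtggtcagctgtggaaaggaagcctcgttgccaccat
Apob: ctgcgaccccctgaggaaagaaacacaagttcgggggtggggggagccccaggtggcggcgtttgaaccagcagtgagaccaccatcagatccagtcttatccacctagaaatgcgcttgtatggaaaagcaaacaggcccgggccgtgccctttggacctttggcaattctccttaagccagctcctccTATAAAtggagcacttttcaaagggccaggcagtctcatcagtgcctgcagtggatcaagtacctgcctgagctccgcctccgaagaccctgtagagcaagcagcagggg
Mttp: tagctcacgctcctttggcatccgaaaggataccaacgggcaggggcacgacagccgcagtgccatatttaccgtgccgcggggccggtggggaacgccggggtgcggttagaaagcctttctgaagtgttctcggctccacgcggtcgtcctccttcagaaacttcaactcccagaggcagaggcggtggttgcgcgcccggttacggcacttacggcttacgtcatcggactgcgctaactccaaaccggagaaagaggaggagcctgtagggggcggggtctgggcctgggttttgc
The Fabp1 window held the repeat in reverse from -67 to -55 and TATAAA from -30 to -25, counted from the start. The Apob window held TATAAA from -60 to -55, and the Mttp window, most of which lies within Trmt10a, held neither. The Mttp window lies inside the span of the gene, whose upstream end is at 138144968. The bases before that end were not searched. Among all 8 windows the repeat was found for Fabp1 and Cd36, and TATAAA for Fabp1, Apob and Fabp6. Of the 32851 RefSeq mouse windows of this length, 3.86% held the repeat with up to 2 mismatches and 13.6% held TATAAA. Without mismatches the repeat was in 0 of the 8 windows and in 0.0396% of all windows. A search for AGGTCA, the unit of the repeat, matched the Fabp1 and Cd36 windows and 16.3% of all windows. For Fabp1 a match lay inside the repeat, whereas for Cd36 it lay outside, from -228 to -223. TTTATG, a CDX site, matched the windows of Fabp1, Fabp6 and Cd36 and 11.9% of all windows. Neither is shown in capitals on its own. A match is a run of letters and not a measured binding site.

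Among the fatty acid binding proteins, Fabp2 had the highest level per kb of transcript. Fabp2 (ENSMUSG00000023057.5, plus strand of chr3:122895072-122899506) encodes the intestinal form. In single mice Fabp2 had values of 3731, 4832, 6757, 9164 and 5524 in ApcMin/+ replicates 1 to 5. They were 2475, 4698, 4238 and 2983 in p16cis/cis replicates 1 to 4. The 2 highest p16cis/cis mice lay above ApcMin/+ replicate 1, so the genotypes overlapped. The log2 difference was -0.72 ± 0.25 (SE), and it did not pass in limma (adjusted p = 0.0686). With DESeq2 on the recovered reads it passed (log2 difference -0.74, adjusted p = 0.0233), as it did in limma without ApcMin/+ replicate 1 (-0.87, adjusted p = 0.0357). In DESeq2, 10.1% of all genes passed with a lower value. Among females the log2 difference was -0.22. A noncoding gene on the opposite strand, 4933405D12Rik, spans Fabp2 with values of 1.57 to 9.76.

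Fabp1 (ENSMUSG00000054422.7, plus strand of chr6:71199827-71205023) encodes the liver form, which is also made by enterocytes. The normalized counts of Fabp1 were 8.93, 13.3, 81.0, 171.6 and 14.8 in ApcMin/+ replicates 1 to 5. They were 7.58, 9.57, 4.51 and 9.40 in p16cis/cis replicates 1 to 4. ApcMin/+ replicates 3 and 4 stood far above all other mice, and the lowest ApcMin/+ mouse lay within the p16cis/cis range. The recovered reads were 253 in the 5 ApcMin/+ and 21 in the 4 p16cis/cis mice. The log2 difference was -1.90 ± 0.76 (SE) and did not pass in limma (adjusted p = 0.105). The count tests called it, with a log2 difference of -2.86 and an adjusted p = 0.0478 in edgeR and -2.89 and an adjusted p = 0.00280 in DESeq2. Of all genes, 1.84% were called lower in edgeR and 2.51% in DESeq2. Fabp1 reached 10 in ApcMin/+ mice alone, so it entered the limma and edgeR tests through the genotype in which it is higher, and its edgeR call is given as a description. Without ApcMin/+ replicates 3 and 4 the log2 difference in limma was -0.62 (adjusted p = 0.384).

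Fabp6 (ENSMUSG00000020405.4, minus strand of chr11:43596049-43601540) encodes the ileal bile acid binding protein. Values of Fabp6 were 281, 244, 231, 347 and 243 in ApcMin/+ replicates 1 to 5. They were 106, 222, 308 and 208 in p16cis/cis replicates 1 to 4. All but 1 of the ApcMin/+ mice lay within the p16cis/cis range, whose lowest value was that of the male. The log2 difference was -0.43 ± 0.26 (SE, limma adjusted p = 0.269), the smallest of the 6. Without p16cis/cis replicate 1 the log2 difference was -0.14.

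Fabp5 (ENSMUSG00000027533.10, plus strand of chr3:10012548-10016607) encodes the epidermal form, found in many epithelia, endothelium and macrophages. For Fabp5 the normalized counts were 34.6, 64.7, 66.3, 59.7 and 37.5 in ApcMin/+ replicates 1 to 5. They were 32.8, 30.3, 40.6 and 21.9 in p16cis/cis replicates 1 to 4. The 3 ApcMin/+ males were highest, and both ApcMin/+ females lay below p16cis/cis replicate 3. The log2 difference was -0.70 ± 0.29 (SE, limma adjusted p = 0.113), and among females it was -0.25. Its transcripts resemble 5 processed pseudogenes, with normalized counts of at most 1.95, and reads shared with them are assigned by estimate, so the value is uncertain to that extent.

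The remaining 4 genes did not pass the filter, and Cd36, Fabp4 and Apoa4 had few reads in either genotype. Cd36 (ENSMUSG00000002944.15, minus strand of chr5:17781690-17888801), a membrane transporter for long-chain fatty acids, had normalized counts of 2.23, 2.85, 3.90, 5.08 and 2.27 in ApcMin/+ replicates 1 to 5. It had 2.53, 0, 0 and 1.57 in p16cis/cis replicates 1 to 4. These values stand for 15 reads in ApcMin/+ and 3 in p16cis/cis mice, with p16cis/cis replicate 1 inside the ApcMin/+ range. Fabp4 (ENSMUSG00000062515.3, minus strand of chr3:10204088-10208576), the adipocyte form, had 10.04, 7.61, 2.93, 0 and 2.27 in ApcMin/+ mice. It had 0, 1.595, 1.503 and 0 in p16cis/cis mice, from 22 reads and 2 reads in all.

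Apoa1 (ENSMUSG00000032083.8, plus strand of chr9:46228580-46230466) encodes the main protein of high density lipoproteins. Apoa1 values were 6.70, 3.80, 21.5, 86.4 and 0 in ApcMin/+ replicates 1 to 5. They were 0, 7.98, 4.51 and 12.5 in p16cis/cis replicates 1 to 4. ApcMin/+ replicates 3 and 4 were again highest and the remaining mice of both genotypes overlapped. Apoa4 (ENSMUSG00000032080.6, plus strand of chr9:46240696-46243459), which encodes a chylomicron apolipoprotein, had 1.12, 0.951, 7.80, 19.1 and 0 in ApcMin/+ mice and 1.57 in p16cis/cis replicate 4. The 3 other p16cis/cis mice were at 0, and the totals were 25 reads and 1 read. A pair of noncoding genes on the opposite strand overlap Apoa4, with values of at most 0.976. With no filter on low values, over 29946 genes, none of the 4 genes passed in limma, while 3.4% of all genes passed with a lower value. The log2 differences, which at such levels depend on the added 1, were then -1.25 for Cd36, -1.38 for Fabp4, -0.88 for Apoa1 and -1.56 for Apoa4. Their adjusted p-values were 0.187, 0.262, 0.682 and 0.252, and Cd36 alone had an unadjusted p-value under 0.05. Changes of Cd36, Fabp4 and Apoa4 were not detectable at this depth, and the difference of Apoa1 was smaller than the spread between ApcMin/+ mice.

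**Figure D2:**
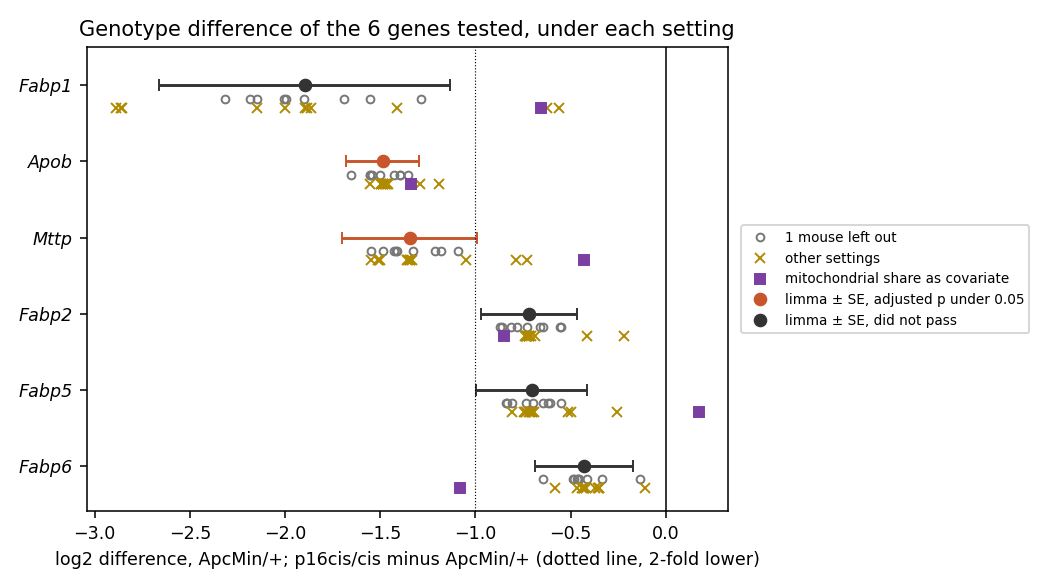
Genotype difference of the 6 genes tested on the log2 scale, p16cis/cis minus ApcMin/+, with the limma estimate ± SE as a filled point, fits with 1 mouse left out as open circles, other settings as crosses and the fit with mitochondrial share as a covariate as a square. Apob at -1.49 varies little between fits, whereas Fabp1 and Mttp move widely, and Fabp5 is at 0.17 with the covariate.

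Levels can be compared between genes only per length, here as the normalized count per kb of the longest protein-coding transcript. In ApcMin/+ mice this level was 6219 ± 2156 (SD, n = 5) for Fabp2, 562 ± 98.8 for Fabp6 and 176 ± 35.3 for Apob, and these 3 did not overlap. Fabp1 at 105 ± 127, Fabp5 at 53.3 ± 15.5, Mttp at 43.7 ± 24.7 and Apoa1 at 22.9 ± 34.8 followed, and neighbors in this order overlapped. Fabp4, Apoa4 and Cd36 were lowest, at 5.10, 3.19 and 0.962. Fabp2 stood at the 98.7th percentile of the genes tested by mean level per kb and Fabp6 at the 81.7th, although both are known mainly from the small intestine. Apob stood at the 50.7th, Fabp1 at the 36.6th, Fabp5 at the 29.7th and Mttp at the 24.7th. In p16cis/cis mice the order was Fabp2 at 3729, Fabp6 at 441, Apob at 63.6, Fabp5 at 31.8, Mttp at 15.3 and Fabp1 at 14.0, and the last pair overlapped.

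**Figure D3:**
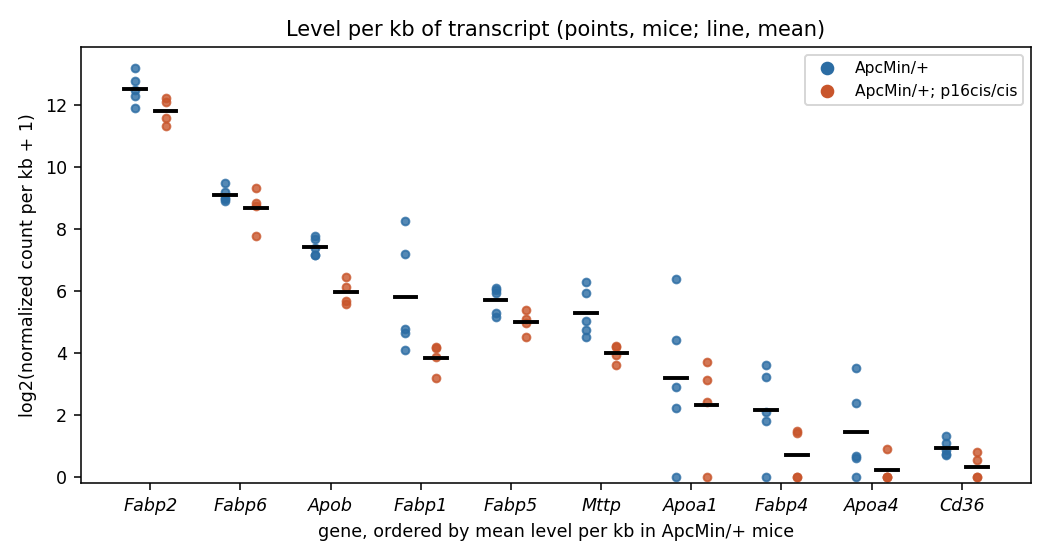
Level per kb of transcript, as log2(normalized count per kb + 1), of the 10 genes in each mouse, ordered by their mean in ApcMin/+ mice, with ApcMin/+ mice in blue, ApcMin/+; p16cis/cis mice in orange and means as lines. Fabp2 is highest in both genotypes, at 6219 and 3729 normalized counts per kb.

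The genes did not all vary together. Over the 9 mice, Pearson's r of Fabp1 and Mttp was 0.94, and it was 0.94 on deviations from the genotype means. Apob and Mttp had r = 0.83 over all mice and 0.50 within genotype. Fabp6 and Mttp had r = 0.33 over all mice and -0.05 within genotype. Among the 14410 genes tested, those most like each member by r over the 9 mice were Pex11a, Ttyh2 and Acadm for Mttp (highest r = 0.99), Prdm1, Plekhb2 and Capza2 for Apob (0.98), and Hadhb, Trpm4 and Ech1 for Fabp1 (0.98). For Fabp2 they were RP23-172B16.4, Cspg4 and Gucd1 (0.99), for Fabp5 Nomo1, Pkp2 and Kcne2 (0.99), and for Fabp6 Pdgfb, Srp68 and Krt20 (0.94). These are the highest of many correlations over 9 mice that share their genotypes, sexes and depths, and are a description only.

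Around Apob and Mttp, most other genes of lipoprotein assembly did not pass the test. Of 28 further assembly genes and apolipoproteins tested, 5 passed with a lower and 1 with a higher value in p16cis/cis mice, with a median log2 difference of -0.19. Dgat2 and Mogat2, enzymes of triglyceride synthesis, and Pltp, the phospholipid transfer protein, were called lower, at -1.01, -1.03 and -1.70. Pltp reached 10 in ApcMin/+ mice alone, so it entered the test through the genotype in which it is higher. Lpin2, a phosphatidate phosphatase, and P4hb, the protein disulfide isomerase that is the partner subunit of MTTP, passed at -0.84 and -0.40. Apoa2, a high density lipoprotein apolipoprotein, was called higher at 1.10, with normalized counts of 13.3 to 25.7 in ApcMin/+ and 35.4 to 45.1 in p16cis/cis mice. Among all genes tested, 8.14% passed with a higher value and 1.83% were called higher. The genes next to Apoa1 and Apoa4 on chromosome 9, Apoc3 and Apoa5, had normalized counts of at most 6.36 and were not tested.

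Of 20 genes of fatty acid uptake and activation tested, 3 passed lower and 0 higher, with a median of -0.27. They were Acsl3, an acyl-CoA synthetase (-0.70), Scarb2, a lysosomal membrane receptor (-0.67), and Lpl, lipoprotein lipase (-0.63), and none was called. Of 9 other lipid binding genes tested, 3 passed lower and 2 higher, with a median of 0.04. Scp2, sterol carrier protein, passed at -0.996, just under 2-fold, and Stard10, a phospholipid transfer protein, at 0.60. The other members of the fatty acid binding family, Fabp3, Fabp7, Fabp9, Fabp12 and Pmp2, did not pass the filter, and Fabp9 and Pmp2 were listed at 0 in all 9 mice.

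Among 20 regulators tested, 3 passed lower and 3 higher, with a median of -0.22. Creb3l3, a membrane-bound transcription factor known to act on apolipoprotein genes, had the greatest difference of the list at -2.63 ± 0.44 (SE, limma adjusted p = 0.00431). The normalized count of Creb3l3 was 238, 328, 722, 1074 and 217 in ApcMin/+ replicates 1 to 5. It was 48.0, 68.6, 60.1 and 102 in p16cis/cis replicates 1 to 4. ApcMin/+ replicates 3 and 4 were highest here too, and the genotypes did not overlap. Ppara, a fatty acid receptor, was called lower at -1.15, and the coactivator Ppargc1a passed at -0.59. Ppard, Nr1h2 and Mlxipl passed with higher values, while Hnf4a, with the highest mean of the list, had a log2 difference of -0.00 (limma adjusted p = 0.990). Of 5 bile acid genes tested, which bear on Fabp6, 3 passed lower, and the list median was -1.12. Slc10a2 at -1.21 and Slc51a at -1.12 were called, and Abcc3 passed at -0.56.

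Markers of small intestine epithelium moved with Apob and Mttp. Of 14 markers 13 were tested, 12 had a lower mean on the log2 scale in p16cis/cis mice, 9 passed lower and 0 higher, 7 were called, and the median log2 difference was -1.03. Npc1l1, one of those called, reached 10 in ApcMin/+ mice alone and so entered the test through the genotype in which it is higher. The others called were Sis, Enpep, Alpi, Slc10a2, Xpnpep2 and Mogat2. Enpep was at -2.33, Alpi at -1.60 and Xpnpep2 at -1.08. Slc10a2 and Mogat2 were also counted in the bile acid and lipoprotein assembly lists above, so these lists are not separate sets of genes. The summed normalized count of the 14 markers was 11344 to 15690 in ApcMin/+ and 7345 to 8959 in p16cis/cis mice, without overlap. Most of this sum came from Mep1a, with means of 5924 and 3703, and Slc5a1, with means of 4007 and 2915. The sum therefore says little about the markers with few reads. Sis, sucrase-isomaltase, showed the greatest difference at -3.04, with 78.0 to 103 in ApcMin/+ and 1.57 to 20.7 in p16cis/cis mice. Lct, lactase, was at no more than 6.27 in any mouse. Of 13 colon epithelium markers 9 had a lower and 4 a higher mean on the log2 scale, with a median log2 difference of -0.30. Among them only the chloride exchanger Slc26a3 passed, and it was called lower at -1.23. Car1, Aqp8 and Krt18 were at -0.81, -0.71 and 0.39 and did not pass. Of 6 markers of distal colon position 1 passed, Hoxd10, higher at 1.35, and all 6 had a higher mean on the log2 scale, Hoxa13 by only 0.01, with sums of 6622 to 11452 in ApcMin/+ and 9539 to 12714 in p16cis/cis mice. Of 6 proximal markers 4 had a lower and 2 a higher mean on the log2 scale, and 1 passed, Hoxb7, lower at -0.65. Hoxa4 and Hoxb6 went the other way, at 0.66 and 0.12, and did not pass. The proximal sums were 3192 to 4441 in ApcMin/+ and 1921 to 3334 in p16cis/cis mice. The part of epithelial makeup and colon position in the differences of Apob and Mttp was not tested.

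**Figure D4:**
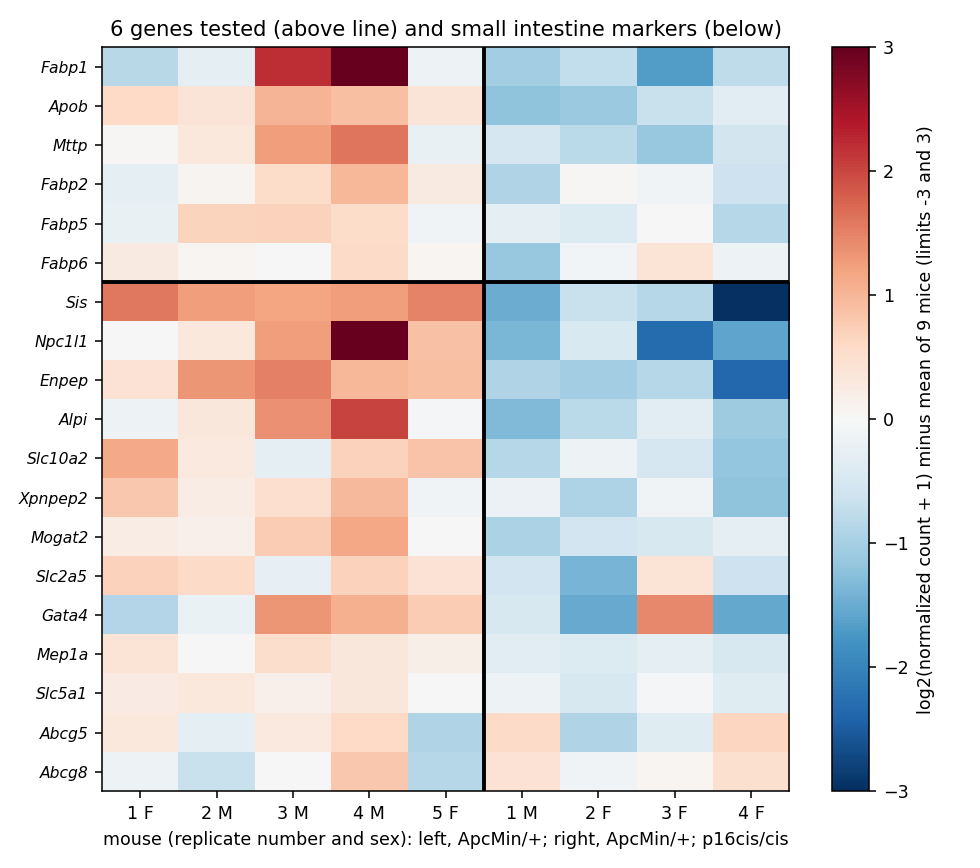
Deviation of each gene from its mean over the 9 mice on the log2(normalized count + 1) scale, for the 6 genes tested (above the line) and 13 small intestine markers (below), with ApcMin/+ mice on the left, ApcMin/+; p16cis/cis mice on the right and the sex of each mouse as F or M. Most rows are red on the left and blue on the right, most of all Sis at a log2 difference of -3.04, while Abcg5 and Abcg8 are not.

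Markers of other cell types bear on Fabp4, Fabp5 and Cd36, which adipocytes, endothelium or macrophages are known to express, and on Fabp1 and the apolipoproteins, which hepatocytes express. Of 4 adipocyte markers tested 1 passed, Cidec, lower at -1.69, and sums were 304 to 736 in ApcMin/+ and 278 to 341 in p16cis/cis mice. Lipe was higher at 0.27, Car3 and Plin4 were lower at -0.19 and -2.22, and none of these passed. Of the defining adipocyte markers, Lep was at 0 in all mice, Plin1 at 1.95 or less and Adipoq at 7.98 or less. Of 6 endothelial markers tested 3 passed lower, Aqp1 at -0.65, Lyve1 at -0.88 and Eng at -2.02, and Eng was called. Sums were 2389 to 3427 and 1261 to 2443, mostly Aqp1, at 2124 to 3131 and 1097 to 2250. The sum therefore does not follow the other endothelial markers. Eng reached 10 in ApcMin/+ mice alone, and so was tested through the genotype in which it is higher. Plvap and Esam had log2 differences of 0.75 and 0.25 and did not pass. The endothelial markers Cdh5 and Kdr, not tested and named here after their values were seen, had values of up to 23.8 and 26.1 in ApcMin/+ mice and were at 0 in all 4 p16cis/cis mice. Other untested endothelial markers were not at 0 in all of them. In p16cis/cis replicates 1 to 4 Tek had 0, 4.79, 4.51 and 4.70, Tie1 2.53, 6.38, 0 and 0, and Cldn5 1.26, 0, 3.01 and 0. Of 9 macrophage markers tested 7 had a lower and 2 a higher mean on the log2 scale, and 1 passed, Lyz2, lower. The 2 higher were Cd68 and Cd14, at 0.85 and 0.38, and did not pass. Sums were 1129 to 2009.7 and 1581 to 1621, mostly Cd14, at 799 to 1615 and 1350 to 1437. All 8 fibroblast and smooth muscle markers tested had a lower mean on the log2 scale, with a median log2 difference of -1.45. Of these 1 passed, Col3a1, lower, with sums of 132 to 639 and 72.1 to 258. All 7 B and plasma cell markers had a lower mean on the log2 scale as well, with a median of -2.19. Of these 1 passed, Jchain, lower, with sums of 36.9 to 1111 and 36.0 to 212. Of 7 T cell markers 0 passed in limma and 0 had an unadjusted p-value under 0.05, with sums of 62.3 to 848 and 255 to 425. Of 5 hepatocyte markers tested 2 passed higher, Ttr and Apoa2, and Apoa2 was also counted among the apolipoproteins above. The hepatocyte sums were 1040.0 to 2023 and 1886 to 2129, whereas Alb was at 40.7 to 79.6. Of 2 squamous markers tested 0 passed in limma and 0 had an unadjusted p-value under 0.05, with sums of 51.3 to 99.3 and 74.5 to 135. The part of these cell types in the values of the 10 genes was not tested.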

How the data were processed

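RNA was extracted from colonic crypts of 9 mice and sequenced on the BGISEQ-500. Per the methods, the authors aligned reads with BOWTIE2, estimated gene levels with RSEM and compared genotypes with DESeq2. Genome build, annotation and tool versions are not given in the sources used here. The deposited signal values are counts per gene scaled by the size factor of each library. Dividing each column by its smallest positive value gave whole reads for 100% of positive values (tolerance 0.01 reads), 13523500 to 17885918 reads per mouse, and low values carry counting error of that depth. Because the values are normalized, limma 3.58.1 (R 4.3.3, trended variances) was fitted to log2(value + 1) of the 14410 genes reaching 10 in 4 or more mice, genotype only, with Benjamini-Hochberg adjustment. Alternatives were edgeR 4.0.16 (quasi-likelihood, TMM and RLE) and DESeq2 1.42.0 on recovered reads, other filters, pseudocount and scalings, sex or mitochondrial share as covariates, females only, a replicate block and leaving out mice. The fit was tested on simulated counts. Locations and lengths came from GENCODE M21 (GRCm38), where all 10 identifiers had the same version, and promoter windows from RefSeq. Members and gene lists were chosen with earlier results of these data known. From each list the text names the genes called, with further genes that passed or have a high mean, and for each tested member the 3 genes with the highest r. Genes named outside this rule, such as the untested neighbors and defining markers, were chosen after their values were seen. Same-numbered mice are different animals, and r of their deviations was -0.18 to 0.14, so numbers were not used as pairs. A gene of the regulator list is not reported here and was left out of its counts.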

Additional observations from a re-analysis of the deposited data

Results flagged for a closer look

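In 2 of 20 groups checked, that is, each of the 10 genes in each genotype, 1 mouse lay far from the others, where chance flags about 1 in 20 groups. The normalized count of Apoa1 was 86.4 in ApcMin/+ replicate 4, against 0 to 21.5 in the other ApcMin/+ mice. The same mouse had the highest Fabp1, Fabp2, Fabp6, Cd36, Apoa4 and Mttp. The normalized count of Apoa4 was 1.57 in p16cis/cis replicate 4, against 0 in the other p16cis/cis mice, and stands for 1 read, which is enough to set a mouse apart when the others are at 0.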

How the results depend on the processing

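Of the 10 genes, 6 were tested and 2 were called in the main test. Over all genes, 237 of 14410 were called lower in the main test, 265 in edgeR with TMM and 430 of 17151 in DESeq2. With sex as a covariate 173 were called lower, 104 in females only, and 320 without ApcMin/+ replicates 3 and 4. With single mice left out the number over all genes was 144 to 432. The count among the 10 genes was 3 in edgeR (TMM and RLE) and DESeq2, where Fabp1 was called too. It was 1 with sex as a covariate, in females only and without ApcMin/+ replicates 3 and 4 together (chosen after seeing the data), and 0 by Bonferroni, where the p-value of Apob was 0.0732 (0.109 in edgeR with TMM, 2.29e-08 in DESeq2, 0.0493 in limma with TMM and 0.00810 with the replicate block). It was 1 to 2 with single mice left out, being 1 without ApcMin/+ replicate 3 or p16cis/cis replicates 2, 3 or 4. Genes of the group that passed without the fold limit numbered 2 in the main test and 4 in DESeq2. Over all genes, 8.75% and 10.1% passed with a lower value in these fits. The number in the group was 1 with sex as a covariate, 1 in females only, and 1 to 3 with single mice left out. With the mitochondrial share as a covariate both counts were 0 in limma, with 1 gene (Apob) at an unadjusted p-value under 0.05, and the log2 difference of Fabp5 reversed to 0.17. Adjusted p-values ranged from 3.19e-10 to 0.848 for Apob and from 0.000797 to 0.932 for Mttp over all fits, and the causes of these shifts were not tested. Apob kept its direction in every fit and, by Benjamini-Hochberg, passed in all but that with the covariate. At fewer than 30 reads per genotype, Cd36, Fabp4 and Apoa4 are limited by depth.

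The replicate block, which pairs same-numbered mice and leaves replicate 5 without a partner, gave 2 genes called and 2 passing and changed no other call. Over all genes, 234 were called lower with the block. With it the SE of the log2 difference of Apob was 0.12, against 0.19 in the main test. The mean r of same-numbered mice was 0.02, over 4 pairs, and the numbers were not used as pairs. So few pairs cannot show whether same-numbered mice were handled together.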

Other observations

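A genotype by sex term, added after seeing the data, passed for none of the 6 genes tested in limma. It was -1.23 on the log2 scale for Fabp6 (unadjusted p = 0.0110) and -1.22 for Fabp2 (unadjusted p = 0.0245), each with an adjusted p = 0.722, and rests on 1 male p16cis/cis mouse. That mouse had the lowest normalized counts of Fabp2 (2475) and Fabp6 (106) among the 9 mice, and of Apob (655).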
